A study of Mus musculus with 48 samples.

Results

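The colon of control mice was compared between CT21, late in the circadian night, and CT1, 4 h later and early in the circadian day. The comparison takes 4 mice at each time, 8 of the 48 mice sequenced, chosen by their genotype and time labels, and all genes counted. Control mice were male littermates with *Bmal1* flanked by loxP sites (*Bmal1*fl/fl) and no Cre, so that their clock gene was intact. *Bmal1*IEC-/- mice carry the same floxed gene with Cre under the Villin promoter, which deletes it in intestinal epithelial cells. Adult mice on a C57BL/6J background were single housed with a running wheel and free access to chow, and were killed on the second day of darkness at 1 of 6 circadian times (CT1, CT5, CT9, CT13, CT17 and CT21), 4 of each genotype per time. Each mouse gave 1 library of colon tissue, so that CT21 and CT1 are different mice, and whether the CT1 mice were taken before or after the CT21 mice is not stated.

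The circadian clock is a transcriptional loop. BMAL1 (listed as *Arntl*) with CLOCK or NPAS2 binds E-boxes and drives the *Per* and *Cry* genes, whose proteins then repress it, and it also drives *Nr1d1* and *Nr1d2*, which encode the repressors REV-ERBα and REV-ERBβ. REV-ERB proteins act on elements in genes such as *Arntl*, and the PAR bZIP factors DBP, TEF and HLF pass the rhythm on through D-boxes. Mice feed at night, and in the colon cell division, transport and lipid handling are known to follow the time of day.

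Between 3227695 and 4027575 reads were counted on genes in the CT1 mice and between 3790439 and 4408757 in the CT21 mice. Replicates differed by more than counting error, with a chi-square per gene of 2.27 to 4.88 between mice of the same group. Markers of the colon wall were abundant (the epithelial gene *Lgals4* had 9900 to 11200 normalized counts and the smooth muscle list 20400 to 26200). Of the pancreatic markers *Cel*, *Cela2a*, *Cpa1*, *Prss2* and *Pnlip* were at 0, and a count of 0 allows up to 3 counts in a mouse. The same list had *Cela1* at 160 to 221 counts, *Cpb1* at 0 to 4.32 and *Ctrb1* at 0 to 0.962. Several measures of the libraries and of tissue make-up moved with the time of sampling. The dependence of expression on the GC content of the transcript (the slope of log2 expression, relative to the mean of all mice, per 10 percentage points of GC) was -0.27 to -0.17 in the CT1 mice and 0.01 to 0.13 in the CT21 mice, without overlap. The mitochondrial share of counts was 5.73% to 6.22% at CT1 and 4.71% to 5.43% at CT21. The summed normalized count of 11 epithelial markers was 32100 to 34900 at CT1 and 35300 to 39300 at CT21, and 4 of them (*Vil1*, *Krt19*, *Cdx1* and *Krt20*) were lower at CT1 (3 after a correction for GC content, which moved the median log2 fold change of the list from -0.24 to 0.03). Plasma cell markers summed to 2420 to 5410 at CT1 and 4200 to 10500 at CT21, and markers of the small intestine to 903 to 1330 and 581 to 754. In tissue RNA, fewer cells of a type and less RNA per cell cannot be told apart. Because of the GC shift, counts of the step are also given after this correction, called the GC offset. It is a term per gene and mouse that was added after seeing the data. On simulated counts with a GC slope added at control CT1, 645 unchanged genes came out as changed without this offset and 6 with it. The part of the shift in the results of the mice themselves was not tested.

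Of 15073 genes tested, 1718 (11.4%) were higher and 1912 (12.7%) lower at CT1 than at CT21. Here a gene is called higher or lower when its adjusted p was under 0.05, by the quasi-likelihood test of edgeR and with the Benjamini-Hochberg adjustment over all genes tested, and all adjusted p values are from this test. The median log2 fold change was 0.55 among the higher and -0.52 among the lower genes, beside 0.01 over all genes. A change of at least 1.5-fold was reached by 790 of the higher and 781 of the lower genes, and one of at least 2-fold by 281 and 191. A stricter test against a change of 1.5-fold itself called 27 and 32 genes. The normalized counts (counts divided by a size factor per mouse) did not overlap between the 4 and 4 mice for 3778 genes (25.1%), among them 1262 of the higher and 1518 of the lower genes.

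Genes higher at CT1 had a median GC content of 45.1% and a median transcript length of 3958 bases, those lower at CT1 55.1% and 2970 bases, and all tested genes 49.6% and 3270 bases. Across 15063 genes, which are not independent replicates, the log2 fold change correlated with GC content (Pearson's r = -0.39, Spearman's rho = -0.46), and with the offset it no longer did (both -0.04). With the GC offset 1500 genes (9.95%) were higher and 1405 (9.32%) lower. Of the genes called without it, 1091 of the 1718 higher (63.5%) and 1033 of the 1912 lower genes (54%) were called in the same direction. The calls under the offset were thus in part of other genes, and the gene lists below are given under both. The calls without the offset alone were used for the shares of promoter motifs and of peak times. The same holds for the shares with the same sign in *Bmal1*IEC-/- mice and for the overlap with the step from CT9 to CT13.

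**Figure D1:**
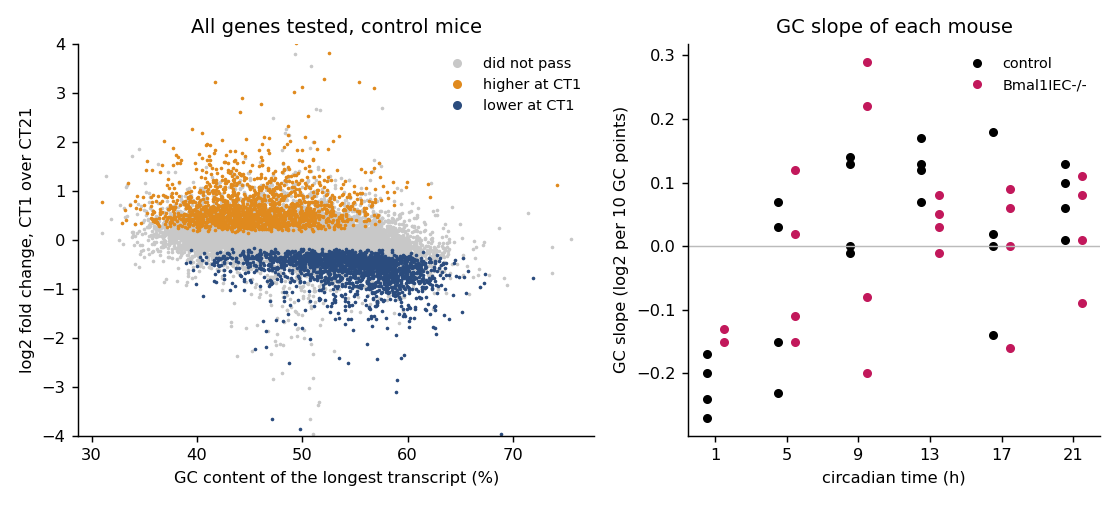
GC content and the step from CT21 to CT1 in control colon. Left, log2 fold change (CT1 over CT21, vertical axis) of each of 15063 genes against the GC content of its transcript in percent (9 genes lie outside the axis). Right, the slope of expression on GC content in each mouse, which was negative in the 4 CT1 mice and above zero in the 4 CT21 mice.

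Leaving out predicted genes, clock genes held the largest change in each direction among called genes with a mean of at least 20 normalized counts. Of 12 clock repressors tested, 8 were lower (66.7%) and 2 higher (16.7%) at CT1, beside 12.7% and 11.4% of all genes. Their median log2 fold change was -0.77, and the same counts were found with the GC offset (median -0.66). The *Per* and *Cry* genes were lower and the *Nr1d* genes higher. *Per2* (ENSMUSG00000055866, chromosome 1, 91415982 to 91459324, GRCm38) had 273, 161, 195 and 252 normalized counts in the CT21 mice and 41, 48.1, 23.7 and 41.8 in the CT1 mice. The groups lay far apart, and the log2 fold change was -2.51 (standard error, SE, of 0.23, adjusted p = 8.75e-10). *Per1* had 175, 86.3, 185 and 165 counts at CT21 and 21.1, 38.5, 13.4 and 40.7 at CT1, a log2 fold change of -2.42 (SE 0.41, adjusted p = 6.52e-05). *Per3*, the third *Period* gene, had 84.3 to 106 counts at CT21 and 47.3 to 65.5 at CT1 (log2 fold change -0.84, adjusted p = 0.00223).

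*Nr1d1* (ENSMUSG00000020889, chromosome 11, 98767932 to 98775333) changed the other way and by more. It had 7.65, 14.1, 17.3 and 16.7 normalized counts in the CT21 mice and 158, 76, 144 and 113 in the CT1 mice, a log2 fold change of 3.11 (SE 0.33, adjusted p = 1.85e-08). All 4 CT1 mice thus stood above every CT21 mouse, 8.63-fold by the fit. Its paralog *Nr1d2* had 102, 110, 115 and 105 counts at CT21 and 330, 186, 251 and 203 at CT1 (log2 fold change 1.16, SE 0.18, adjusted p = 1.51e-05).

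The cryptochromes, which with the PER proteins hold the BMAL1 complex in check, were both lower at CT1. *Cry1* had 209, 204, 157 and 195 counts at CT21 and 115, 109, 118 and 112 at CT1, a log2 fold change of -0.75 (adjusted p = 0.000364), and the groups did not overlap. *Cry2* had a log2 fold change of -0.93 (adjusted p = 6.07e-05), although its lowest CT21 mouse (150 counts) fell just under its highest CT1 mouse (151). *Nfil3*, which encodes E4BP4, a repressor at D-boxes, was lower at CT1 by a log2 value of -0.79 (adjusted p = 0.000767). The E-box repressors *Bhlhe40* (DEC1) and *Bhlhe41* (DEC2) had log2 fold changes of -0.5 (adjusted p = 0.0112) and -1.63 (adjusted p = 0.0233). Both calls depended on single mice. Without CT1 replicate 3 the adjusted p of *Bhlhe40* was 0.0836, and without CT1 replicate 2 that of *Bhlhe41*, whose counts were between 0 and 13.4, was 0.105. *Bhlhe41* also missed the threshold without CT1 replicate 3 and without CT21 replicate 1. *Ciart* (0.878 to 7.7 counts) and *Cipc* (406 to 708 counts), which encode inhibitors of the CLOCK complex, did not pass, with log2 fold changes of 0.19 and -0.08, and both changed sign when CT1 replicate 4 or CT21 replicate 4 was left out.

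Promoter sequences are shown for those core clock genes (repressors, activators and PAR bZIP factors) that passed in the step and whose promoter holds an E-box or a D-box, since these are the elements through which the loop is known to act. Promoters (250 bases before to 50 after the start) were taken from RefSeq on GRCm38.p6, which held an entry for 18 of the 21 clock genes tested and none for *Per2*. The E-box CACGTG and the D-box TTATGTAA or TTATGCAA, searched on both strands, are in capitals.
Per1 (chr11:69098699-69098998, plus strand): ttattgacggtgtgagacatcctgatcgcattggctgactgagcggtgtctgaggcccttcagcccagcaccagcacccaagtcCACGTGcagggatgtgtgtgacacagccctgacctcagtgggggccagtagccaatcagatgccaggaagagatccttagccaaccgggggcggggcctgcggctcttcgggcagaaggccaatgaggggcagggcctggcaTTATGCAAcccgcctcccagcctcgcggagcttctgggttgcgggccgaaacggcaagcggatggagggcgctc
Per3 (chr4:151044616-151044915, minus strand): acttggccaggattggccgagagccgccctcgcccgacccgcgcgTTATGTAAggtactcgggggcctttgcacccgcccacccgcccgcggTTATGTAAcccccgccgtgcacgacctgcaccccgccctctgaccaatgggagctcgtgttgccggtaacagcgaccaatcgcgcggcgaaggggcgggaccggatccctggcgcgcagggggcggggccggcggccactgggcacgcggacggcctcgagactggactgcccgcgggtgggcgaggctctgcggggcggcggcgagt
Cry1 (chr10:85185005-85185304, minus strand): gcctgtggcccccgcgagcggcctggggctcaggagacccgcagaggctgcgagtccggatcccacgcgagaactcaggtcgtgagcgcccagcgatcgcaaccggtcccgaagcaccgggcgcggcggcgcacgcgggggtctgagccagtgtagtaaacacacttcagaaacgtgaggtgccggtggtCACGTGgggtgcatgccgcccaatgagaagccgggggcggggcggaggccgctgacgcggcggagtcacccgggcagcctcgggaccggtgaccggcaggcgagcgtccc
Tef (chr15:81802423-81802722, plus strand): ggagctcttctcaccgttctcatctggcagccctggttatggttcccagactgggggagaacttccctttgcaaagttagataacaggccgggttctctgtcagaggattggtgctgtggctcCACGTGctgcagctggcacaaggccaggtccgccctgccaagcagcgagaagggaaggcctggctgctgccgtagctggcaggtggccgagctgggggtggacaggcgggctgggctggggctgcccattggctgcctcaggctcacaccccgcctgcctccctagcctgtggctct
Bhlhe41 (chr6:145865371-145865670, minus strand): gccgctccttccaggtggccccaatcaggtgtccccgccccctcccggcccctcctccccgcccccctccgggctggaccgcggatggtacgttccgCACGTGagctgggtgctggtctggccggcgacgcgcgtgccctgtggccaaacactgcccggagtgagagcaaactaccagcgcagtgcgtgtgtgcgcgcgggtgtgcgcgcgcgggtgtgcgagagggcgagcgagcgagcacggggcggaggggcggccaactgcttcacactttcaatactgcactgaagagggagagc
*Per1* holds both elements, *Per3* holds 2 copies of the D-box, and *Cry1*, *Tef* and *Bhlhe41* an E-box each. *Tef* has another entry with an E-box, at chr15:81811164-81811463. An E-box was found for 6 of the 18 clock genes (33.3%) and a D-box for 2 (11.1%). Among all 11111 tested genes with an entry (73.7% of the symbols), the shares were 11.3% and 1.38%. Genes higher at CT1 held an E-box in 11.7% and genes lower at CT1 in 12.2% of cases, a D-box in 1.6% and 1.6%, and the half-site TAGGTCA bound by REV-ERB proteins in 2.98% and 2.4%, beside 2.32% of all.

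Of the 3 PAR bZIP factors 2 were lower at CT1, with and without the GC offset. *Tef* had 241, 243, 215 and 251 normalized counts at CT21 and 117, 76, 77.4 and 141 at CT1, a log2 fold change of -1.22 (SE 0.14, adjusted p = 2.14e-07). *Hlf* had 25.1 to 44 counts at CT21 and 19.2 to 22.7 at CT1 (log2 fold change -0.86, adjusted p = 0.0074). *Dbp* did not overlap either, with 15.8 to 22.5 counts at CT21 and 7.22 to 12.9 at CT1, but did not pass (log2 fold change -1, adjusted p = 0.064), and its value with the GC offset was -0.54 (adjusted p = 0.331).

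Of 16 clock output genes, a list of known targets and of regulators of clock protein stability, 8 were lower (50%) and 1 higher (6.25%) at CT1. The shares of all genes were 12.7% and 11.4%. The median of the list was -0.42, and with the GC offset 9 were lower and 1 higher. *Usp2*, a clock-driven ubiquitin protease, had 221, 113, 159 and 200 counts at CT21 and 23.4, 35.6, 18.6 and 51.7 at CT1 (log2 fold change -2.42, SE 0.27, adjusted p = 6.68e-08). The casein kinases that phosphorylate PER proteins were lower as well. *Csnk1d* had 754 to 787 counts at CT21 and 510 to 594 at CT1 (log2 fold change -0.52, adjusted p = 2.73e-06) and *Csnk1e* 148 to 208 and 70.2 to 104 (-0.96, adjusted p = 2.2e-05).

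The activators had a median of 0.18 (0.07 with the GC offset). *Npas2*, the partner of BMAL1 beside CLOCK, was higher, with 137, 158, 148 and 120 counts at CT21 and 213, 218, 224 and 223 at CT1 (log2 fold change 0.64, adjusted p = 0.00119). *Arntl* itself, the floxed gene, did not pass. It had 252 ± 23.9 counts at CT21 and 260 ± 18 at CT1 (mean ± SD, n = 4 each), a log2 fold change of 0.04 (adjusted p = 0.851), which fell to 0 without CT1 replicate 3. In *Bmal1*IEC-/- mice it had 139 ± 10.5 counts (n = 4) at CT21 and 177 ± 6.67 (n = 2) at CT1, reads that take in the whole gene and the cell types that keep it. *Clock* had 326 to 561 counts at CT21 and 368 to 481 at CT1 (log2 fold change 0.02, adjusted p = 0.94, and -0.15 with the GC offset). *Rora* had a log2 fold change of 0.32 (adjusted p = 0.0579) and *Arntl2* one of 0.66 (adjusted p = 0.111).

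Per kilobase of transcript, *Bhlhe40* stood at 192 normalized counts at CT21 and 136 at CT1, where *Cipc* stood at 122. *Per2* went from 37.7 to 6.62 counts per kilobase and *Nr1d1* from 5.11 to 45.2 over the step.

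**Figure D2:**
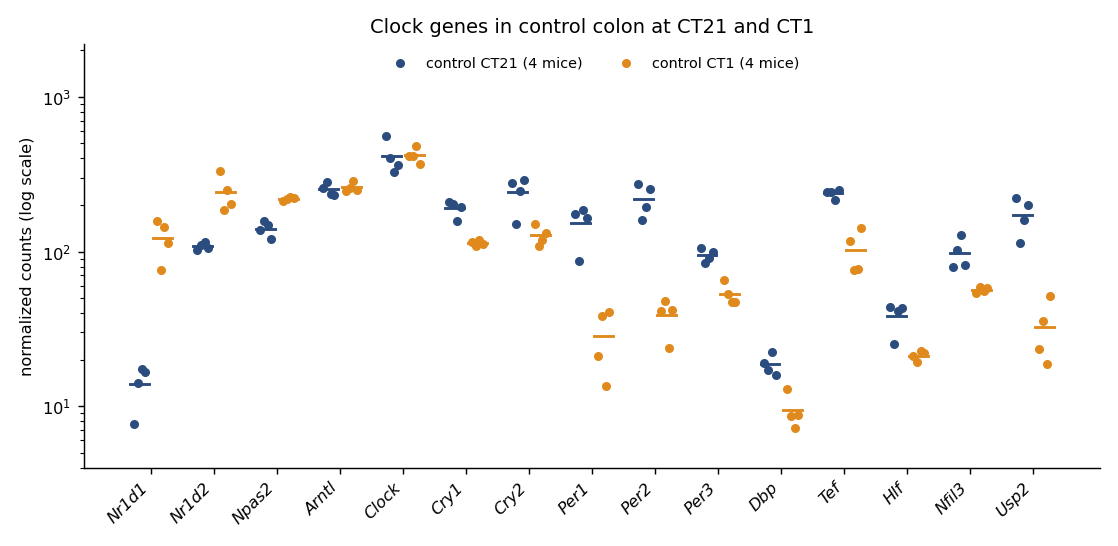
Clock genes in the colon of each control mouse at CT21 and CT1. Each point is the normalized count of 1 mouse on a log axis and each line the mean of 4 mice. *Per2* (161 to 273 against 23.7 to 48.1 counts) and *Nr1d1* (7.65 to 17.3 against 76 to 158 counts) changed in opposite directions, and *Arntl* had 231 to 283 and 246 to 286 counts.

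The 10 genes with the smallest adjusted p among those higher at CT1 were led, after *Nr1d1*, by *Mier3* and included *Sirt1* and *Rad21*. *Mier3*, a chromatin regulator, had 228, 239, 151 and 303 counts at CT21 and 643, 788, 846 and 585 at CT1 (log2 fold change 1.64, SE 0.2, adjusted p = 5.11e-07). *Sirt1*, an NAD-dependent deacetylase, had 53.6, 67.2, 52.8 and 58 counts at CT21 and 199, 158, 132 and 111 at CT1 (log2 fold change 1.37, adjusted p = 3.61e-06). Every CT1 mouse was above every CT21 mouse in both. Smaller changes with standard errors of 0.08 to 0.1 were seen for *Rad21*, a cohesin subunit (log2 fold change 0.6, adjusted p = 1.82e-06), *Slc8a1*, a sodium/calcium exchanger (0.77, adjusted p = 2.13e-06), *Tcf12*, a basic helix-loop-helix factor (0.55, adjusted p = 7.71e-06) and *Mgea5*, which removes O-GlcNAc from proteins (0.52, adjusted p = 7.71e-06). *Tmtc4* (1.15, adjusted p = 1.81e-06) and the serine protease gene *Prss23* (1.24, adjusted p = 3.6e-06) complete this group, together with *Nr1d1* and *Cenpa*.

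On the lower side, the genes chosen in the same way included *Per2*, *Usp2* and *Tef*, and also *Lmnb2*, *Pdxk*, *Slc25a22*, *Plin2* and *Rhbdf1*. *Lmnb2*, lamin B2, had 241, 223, 226 and 201 counts at CT21 and 112, 107, 106 and 125 at CT1 (log2 fold change -0.98, adjusted p = 4.42e-07). *Slc25a22*, a mitochondrial glutamate carrier, had 298, 257, 301 and 226 counts at CT21 and 79.6, 78.8, 89.7 and 148 at CT1 (log2 fold change -1.45, adjusted p = 5.56e-07). *Plin2*, which coats lipid droplets, had 471, 475, 489 and 445 counts at CT21 and 289, 240, 223 and 316 at CT1 (log2 fold change -0.82, adjusted p = 1.24e-06). In all 3 the groups were apart. *Pdxk*, pyridoxal kinase (log2 fold change -1.1), and *Rhbdf1*, an inactive rhomboid (-1.09), had adjusted p values of 4.42e-07 and 1.33e-06.

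By size of change, among called genes with a mean of at least 20 normalized counts and without predicted genes, *Nr1d1* was followed by *Ankrd37*. This target of hypoxia-inducible factor had 9.57 to 28.1 counts at CT21 and 45.4 to 118 at CT1 (log2 fold change 2, adjusted p = 0.00578). *Zfp286os*, annotated as antisense to *Zfp286*, had 6.05 to 11 counts at CT21 and 20.9 to 48.1 at CT1 (log2 fold change 1.96, adjusted p = 0.000329), and as the strand setting of the counting is not stated its reads cannot be told apart from those of *Zfp286*. *Slc34a2*, a phosphate cotransporter, and *Col8a1*, a collagen of type VIII, had a log2 fold change of 1.84 each (adjusted p = 0.00145 and 1.7e-05). Their highest CT21 and lowest CT1 mice were close, at 78.2 and 79.2 counts for *Slc34a2* and 80.8 and 97.9 for *Col8a1*. In the other direction, *Per2*, *Usp2* and *Per1* were followed by *Angptl4*, an inhibitor of lipoprotein lipase, with 95.7, 85.3, 110 and 73.8 counts at CT21 and 17.6, 13.5, 20.6 and 38.5 at CT1 (log2 fold change -2.02, adjusted p = 5.54e-05). *Bcl3*, an atypical IκB protein, had 80.3 to 107 counts at CT21 and 19.2 to 29.9 at CT1 (log2 fold change -1.92, adjusted p = 1.02e-05, and -1.42 with the GC offset).

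Genes of mitosis were higher at CT1. Of 40 tested, 36 were higher and none was lower at CT1 (37 and 0 with the GC offset), against 11.4% of all genes higher. Their log2 fold changes lay between 0.25 and 1.49, with a median of 0.91 (0.94 with the GC offset). Summed over the list, the CT21 mice had 2720 to 4130 and the CT1 mice 3870 to 7170 normalized counts, so that the lowest CT1 mouse was within the range of the CT21 mice. *Cenpa*, the histone H3 variant of centromeres (ENSMUSG00000029177, chromosome 5, 30666777 to 30674830), had 51.7, 84.3, 35.5 and 53.6 counts at CT21 and 144, 192, 190 and 101 at CT1 (log2 fold change 1.49, SE 0.21, adjusted p = 7.71e-06). *Kif2c*, a kinesin that depolymerizes microtubules at the kinetochore, had 22, 32.1, 26.8 and 22 counts at CT21 and 59.7, 93.3, 66 and 63.8 at CT1 (log2 fold change 1.46, adjusted p = 5.06e-05). *Ccnb1*, cyclin B1, which drives entry into mitosis, had 27.7 to 64.2 counts at CT21 and 77 to 159 at CT1 (1.33, adjusted p = 6e-05), and *Cenpe*, a kinetochore motor, 37.8 to 68.2 and 78.1 to 170 (1.39, adjusted p = 7.79e-05). For each of these 4 genes the groups were apart.

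Of 34 DNA replication genes, none was higher and 3 were lower (8.82%, under the 12.7% of all genes), with a median of -0.08, and 2 were lower with the GC offset. Summed, they had 3700 to 4650 counts at CT21 and 3040 to 4260 at CT1. The 3 were *Ccnd1*, cyclin D1 of the G1 phase (299 to 343 counts at CT21 and 164 to 222 at CT1, log2 fold change -0.75, adjusted p = 0.000331), *Mcm2*, a subunit of the replicative helicase (-0.58, adjusted p = 0.00937), and *E2f2*, an E2F transcription factor (-0.6, adjusted p = 0.0269). *E2f2* lost its call with the GC offset (adjusted p = 0.234) and in 5 of 8 fits without 1 mouse (up to adjusted p = 0.074 without CT21 replicate 4).

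The promoter of *Cenpa* is shown because mitosis genes are known to share a CCAAT box and a cell cycle homology region, whose core TTTGAA was chosen as a search string after the values were seen. Both are in capitals, the CCAAT boxes as their reverse complement ATTGG.
Cenpa (chr5:30666636-30666935, plus strand): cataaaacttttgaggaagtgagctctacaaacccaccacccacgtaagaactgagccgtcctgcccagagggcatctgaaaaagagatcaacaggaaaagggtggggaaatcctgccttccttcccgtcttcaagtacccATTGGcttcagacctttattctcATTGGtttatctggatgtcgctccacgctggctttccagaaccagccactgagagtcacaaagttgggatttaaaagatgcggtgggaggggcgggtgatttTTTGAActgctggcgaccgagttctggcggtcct
TTTGAA was present on either strand for 25 of 33 mitosis genes with an entry (75.8%), 0 of 18 clock genes and 14.5% of all tested genes. It was found in 21.8% of the genes higher and 10.5% of those lower at CT1. These sets also differ in the median GC content of their transcripts (45.1% and 55.1%), and the part of GC content in these shares was not tested. CCAAT was found for 27 of the 33 mitosis genes (81.8%), 14 of 18 clock genes (77.8%) and 42.3% of all tested genes. Of the mitosis genes named above only *Cenpa* held both strings. *Kif2c* held TTTGAA without CCAAT, and *Ccnb1* and *Cenpe* held CCAAT without TTTGAA.

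Of 22 heat shock genes 10 were lower at CT1 (45.5%, beside 12.7% of all genes) and none was higher, with a median of -0.42 (also 10 and 0 with the GC offset, median -0.44). *Fkbp4*, a cochaperone of HSP90, had 931, 995, 949 and 786 counts at CT21 and 585, 578, 599 and 645 at CT1 (log2 fold change -0.61, adjusted p = 0.00101). *Hsf1*, the heat shock transcription factor (-0.45, adjusted p = 0.00526), and *Hspe1*, the mitochondrial cochaperone HSP10 (-0.51, adjusted p = 0.00673), were lower as well. *Hspb1*, HSP27, had a log2 fold change of -0.97 (adjusted p = 0.00251) and of -0.5 with the GC offset (adjusted p = 0.0872). Of 32 genes of folding and secretion in the endoplasmic reticulum (ER) 12 were lower (37.5%) and none was higher, with a median of -0.2 (14 and 0 with the GC offset, median -0.27). *Creld2*, induced by ER stress, had 207, 247, 226 and 182 counts at CT21 and 93.6, 128, 123 and 121 at CT1 (log2 fold change -0.88, adjusted p = 0.00163). *Hyou1*, an ER chaperone of the HSP70 kind (-0.8, adjusted p = 0.00245), and *Manf* (-0.64, adjusted p = 0.00759) went with it, and *Syvn1*, a ubiquitin ligase of the ER, had -0.53 (adjusted p = 0.00719), which was -0.28 with the GC offset (adjusted p = 0.125). Plasma cells, which are rich in ER chaperones, had marker counts that moved the same way (*Igha* log2 fold change -1.02, adjusted p = 0.00869), and their part in the ER genes was not tested.

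Of the 3 cold-inducible RNA-binding genes, whose levels are known to follow body temperature, all were higher at CT1. *Cirbp* had 114, 152, 157 and 181 counts at CT21 and 246, 222, 299 and 233 at CT1 (log2 fold change 0.73, adjusted p = 0.00672). *Rbm3* (0.4, adjusted p = 0.0201) and *Srsf5* (0.25, adjusted p = 0.0147) lost their calls with the GC offset (adjusted p = 0.249 and 0.678) and without single mice, at adjusted p values of up to 0.0872 for *Rbm3* without CT1 replicate 1 and 0.069 for *Srsf5* without CT21 replicate 1. Of 34 genes of splicing and nuclear speckles 12 were higher (35.3%, beside 11.4% of all genes) and none was lower, with a median of 0.22 (8 and 0 with the GC offset, median 0.12). *Srsf6*, a serine/arginine-rich splicing factor, had 720, 825, 703 and 777 counts at CT21 and 1220, 1250, 1320 and 921 at CT1 (log2 fold change 0.64, adjusted p = 0.000153). *Rbm39* (0.44, adjusted p = 0.00119), *Ccnl1* (0.43, adjusted p = 0.00153) and *Srsf2* (0.41, adjusted p = 0.00163) were also higher. This list has a median GC content of 43.6%, under the 49.6% of all genes.

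Of 18 glycolysis genes 10 were lower at CT1 (55.6%, beside 12.7% of all genes) and 1 was higher, with a median of -0.33 (8 and 1 with the GC offset, median -0.19). *Ldha*, lactate dehydrogenase A, had 3730, 3290, 3670 and 3330 counts at CT21 and 2550, 2520, 2400 and 2680 at CT1 (log2 fold change -0.47, SE 0.07, adjusted p = 8.23e-06). The enzymes *Tpi1* (-0.51, adjusted p = 1.13e-05), *Eno1* (-0.52, adjusted p = 0.000227) and *Pgam1* (-0.51, adjusted p = 0.000506) changed by about as much. The whole list summed to 24200 to 25500 counts at CT21 and 18600 to 20000 at CT1, without overlap. Of 68 respiratory chain subunits 16 were lower (23.5%, beside 12.7% of all genes) and 1 was higher (13 and 2 with the GC offset), with a median of -0.09. *Uqcr10*, of complex III, had a log2 fold change of -0.6 (adjusted p = 0.00134), *Ndufb10*, of complex I, -0.45 (adjusted p = 0.000401). *Cycs*, cytochrome c (-0.35, adjusted p = 0.00905), and *Atp5g1*, of the ATP synthase (-0.36, adjusted p = 0.0121), had adjusted p values of 0.0745 without CT21 replicate 1 and 0.0555 without CT21 replicate 3.

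Of 25 genes of sterol synthesis and its control 10 were higher (40%) and 3 lower (12%) at CT1, beside 11.4% and 12.7% of all genes. The median was 0.38, and with the GC offset 8 were higher and 1 lower (median 0.31). *Insig1*, which restrains sterol synthesis and is itself induced by SREBP, had 114, 303, 193 and 263 counts at CT21 and 871, 780, 566 and 397 at CT1 (log2 fold change 1.58, SE 0.36, adjusted p = 0.0014). *Stard4*, a sterol carrier, had 649 to 795 counts at CT21 and 911 to 1230 at CT1 (0.57, adjusted p = 0.000944). The groups did not overlap in either gene. *Dhcr7*, which makes cholesterol from its last precursor, was lower, with a log2 fold change of -0.5 (adjusted p = 0.000205). The sum of the list varied widely at CT1, from 6780 to 10900 counts, beside 6840 to 8850 at CT21.

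Of 34 genes of fatty acid oxidation and ketone metabolism 11 were lower (32.4%) and 2 higher (5.88%), beside 12.7% and 11.4% of all genes. The median was -0.12, and with the GC offset 10 were lower and 2 higher. *Plin2* and *Angptl4*, both targets of PPAR factors, were among the lower ones. *Ppargc1a*, the coactivator PGC-1α, was higher, with 128 to 155 counts at CT21 and 220 to 308 at CT1 (0.87, adjusted p = 0.000317). Of 19 genes of fatty acid synthesis none was higher and 2 were lower (10.5%), both of triglyceride synthesis, and with the GC offset 1 was higher and 4 were lower. The 2 lower without it were *Agpat2* (-0.62, adjusted p = 0.000628) and *Dgat2* (-0.94, adjusted p = 0.000872, with 1 CT1 mouse at 219 counts above the lowest CT21 mouse at 207). *Scd2* (-0.5, adjusted p = 0.0504) and *Mlxipl* (-0.36, adjusted p = 0.053) stood just short of the threshold. Adipocyte markers varied widely within each group, with sums of 121 to 1980 counts at CT21 and 189 to 778 at CT1, and their part in these lipid genes was not tested.

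Of 17 glucocorticoid-responsive genes 5 were lower (29.4%) and 1 was higher (5.88%), beside 12.7% and 11.4% of all genes. The median was -0.22, and with the GC offset 3 were lower and 1 higher. *Sgk1*, a kinase that activates epithelial sodium channels, had 1170, 712, 1070 and 970 counts at CT21 and 293, 405, 265 and 415 at CT1 (log2 fold change -1.51, SE 0.27, adjusted p = 0.00013). *Tsc22d3*, known as GILZ, had 128 to 241 counts at CT21 and 53.6 to 119 at CT1 (-1.06, adjusted p = 0.000399). The mineralocorticoid receptor gene *Nr3c2* was higher (0.47, adjusted p = 0.000987), and *Hsd11b2*, whose enzyme inactivates glucocorticoids in front of that receptor, was lower (-0.59, adjusted p = 0.002, but -0.28 and 0.0786 with the GC offset). Of 23 immediate early genes 2 were higher (8.7%) and 3 lower (13%), near the shares of all genes (4 and 2 with the GC offset). *Egr1* had 70.8, 93.3, 76.1 and 36 counts at CT21 and 215, 263, 250 and 79.2 at CT1, where 1 mouse lay within the CT21 range (log2 fold change 1.56, adjusted p = 0.00957). *Klf6* was higher (0.87, adjusted p = 0.000628), and *Junb* (-1.44, adjusted p = 0.0014) and *Ier3* (-1.26, adjusted p = 0.00728) were lower.

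Of 32 ion and water transport genes 3 were higher (9.38%) and 7 lower (21.9%), beside 11.4% and 12.7% of all genes (4 and 5 with the GC offset). Beside *Sgk1* the lower genes with the smallest adjusted p were *Kcnn4*, a calcium-activated potassium channel (98.5 to 131 counts at CT21 and 61.6 to 74.3 at CT1, log2 fold change -0.78, adjusted p = 0.000246), *Aqp11*, an aquaporin (-0.55, adjusted p = 0.00092), and *Kcne3*, a potassium channel subunit of chloride-secreting cells (-0.53, adjusted p = 0.0109). The call of *Kcne3* rested on CT1 replicate 3, without which its adjusted p was 0.058. Of 30 nutrient transport genes 4 were higher and 4 lower (5 and 4 with the GC offset), 13.3% each and so near the shares of all genes. *Slc6a14*, an amino acid transporter, had 1390, 2070, 2180 and 1840 counts at CT21 and 3180, 3460, 3080 and 2960 at CT1 (log2 fold change 0.76, adjusted p = 0.00199). *Slc15a1*, the peptide transporter PEPT1, had 2.87 to 13.8 and 24.6 to 28.6 counts (1.29, adjusted p = 0.0011). The bile acid transporter *Slc10a2* had 592 to 917 and 1090 to 1430 counts (0.69, adjusted p = 0.00248). These last genes are best known from the small intestine, whose marker list also summed higher at CT1 (903 to 1330 counts against 581 to 754, mostly *Apob* and *Sis*), and the part of such markers in these values was not tested. *Slc3a2*, the heavy chain of amino acid exchangers (-0.48, adjusted p = 0.000734), and the glucose transporter gene *Slc2a1* (-0.53, adjusted p = 0.00247) were lower. Of 8 bile acid genes only *Slc10a2* passed, with and without the GC offset, and *Nr1h4*, which encodes the bile acid receptor FXR, had a log2 fold change of 0.12 (adjusted p = 0.516). *Nr5a2* (0.17, adjusted p = 0.137) and *Vdr* (-0.15, adjusted p = 0.167) did not pass.

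Of 48 genes of xenobiotic metabolism 10 were higher (20.8%) and 3 lower (6.25%), beside 11.4% and 12.7% of all genes (7 and 2 with the GC offset). The lower ones included *Alas1*, the rate-limiting enzyme of heme synthesis, with 937, 793, 1080 and 898 counts at CT21 and 208, 290, 234 and 498 at CT1 (log2 fold change -1.59, SE 0.25, adjusted p = 2.74e-05), and *Por*, the electron donor of cytochromes P450 (-0.75, adjusted p = 5.7e-05). The sulfotransferase gene *Sult1a1* (0.5, adjusted p = 0.00024) and the efflux pump gene *Abcg2* (0.47, adjusted p = 0.000734) were higher.

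Of 24 junction and adhesion genes 5 were higher (20.8%) and 6 lower (25%), beside 11.4% and 12.7% of all genes (4 and 4 with the GC offset). *Cldn2*, a claudin that forms cation and water pores, had 3530, 2870, 3360 and 2470 counts at CT21 and 1150, 1000, 873 and 1840 at CT1 (log2 fold change -1.33, SE 0.26, adjusted p = 0.000302). *Cgn*, cingulin of tight junctions, was lower (-0.53, adjusted p = 0.000162), and the desmosomal cadherin genes *Dsg2* (0.38, adjusted p = 0.00301) and *Dsc2* (0.35, adjusted p = 0.00394) were higher. Of 24 mucus and goblet cell genes 2 were higher (8.33%) and 4 lower (16.7%), beside 11.4% and 12.7% of all genes. With the GC offset 4 were higher and 3 lower. The lower genes with the smallest adjusted p were transcription factors of the secretory lineage. *Atoh1* had 421, 250, 418 and 457 counts at CT21 and 135, 141, 120 and 247 at CT1 (log2 fold change -1.27, adjusted p = 8.18e-05), and *Spdef* 670 to 987 and 365 to 442 (-1.06, adjusted p = 0.000231). Their groups did not overlap, by only a few counts in *Atoh1*. *Tff3*, a trefoil factor of goblet cells, had -0.37 (adjusted p = 0.00578, and 0.177 with the GC offset), and *Fer1l6* 0.63 (adjusted p = 0.00118).

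Of 27 antimicrobial and barrier immune genes 5 were higher (18.5%) and 2 lower (7.41%), beside 11.4% and 12.7% of all genes (5 and 0 with the GC offset). *Nox1*, the NADPH oxidase of colon epithelium, had 12.4, 48.2, 27.7 and 22 counts at CT21 and 102, 88.5, 60.9 and 44 at CT1 (log2 fold change 1.43, adjusted p = 0.00142). The Toll-like receptor genes *Tlr4* (0.87, adjusted p = 0.000546) and *Tlr2* (0.68, adjusted p = 0.0018) and the chemokine gene *Ccl28* (0.58, adjusted p = 0.00608) were higher too. Of 33 interferon and antigen presentation genes 4 were higher (12.1%) and 7 lower (21.2%), beside the same shares of all genes (3 and 3 with the GC offset). *Ifit1* had 36.4 to 101 counts at CT21 and 104 to 197 at CT1 (1.07, adjusted p = 0.00325). *Oasl2* had 1.33 (adjusted p = 0.0095, and 0.059 without CT1 replicate 2). The class I genes *H2-K1* (-0.32, adjusted p = 0.00281) and *H2-D1* (-0.35, adjusted p = 0.00367, and 0.136 with the GC offset) were lower, values that are uncertain because near copies of these genes share reads.

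Of 33 autophagy and FoxO genes 6 were higher (18.2%) and 4 lower (12.1%), beside 11.4% and 12.7% of all genes (6 and 2 with the GC offset). *Fbxo32*, a muscle atrophy ubiquitin ligase subunit, was higher (24.9 to 41.3 counts at CT21 and 66 to 81.7 at CT1, log2 fold change 1.09, adjusted p = 5e-04). So were *Ccng2* (0.64, adjusted p = 0.00092) and *Bnip3l* (0.43, adjusted p = 0.00408, and 0.0596 with the GC offset), and the stress gene *Sesn2* was lower (-1.13, adjusted p = 0.00184). Of 16 polyamine and arginine genes 1 was higher (6.25%) and 5 were lower (31.2%) (0 and 4 with the GC offset). *Amd1*, of polyamine synthesis, had -0.49 (adjusted p = 0.00517), *Azin1* -0.46 (0.0142, and 0.071 without CT21 replicate 1), *Oat* -0.24 (0.00961, and 0.0617 without CT21 replicate 3) and *Otc*, of the urea cycle, 0.59 (0.00535, and 0.05 with the GC offset). Of 36 ribosome biogenesis genes 4 were higher (11.1%, near the 11.4% of all genes) and 8 lower (22.2%) (2 and 6 with the GC offset). *Npm1* was higher (0.37, adjusted p = 0.00138, and 0.0691 with the GC offset), and *Bysl* (-0.64), *Utp4* (-0.61) and *Rrs1* (-0.64) were lower, with adjusted p values of 0.0037, 0.00459 and 0.00568. Of 68 cytosolic ribosomal protein genes, whose pseudogenes can take up reads, 8 were lower and none was higher (4 and 2 with the GC offset). The 11.8% lower are close to the 12.7% of all genes. *Rpl18* (-0.5, adjusted p = 0.00386), *Rplp2* (-0.66, adjusted p = 0.0156) and *Rps29* (-0.55, adjusted p = 0.0184, and 0.0716 without CT21 replicate 3) were among them, and *Rpl29* went from -0.39 (adjusted p = 0.0185) to 0.03 with the GC offset and had an adjusted p of 0.0775 without CT21 replicate 3.

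Of 22 Wnt and stem cell genes 1 was higher (4.55%) and 3 were lower (13.6%), beside 11.4% and 12.7% of all genes. With the GC offset 3 were higher and none was lower. *Wnt5a* had a log2 fold change of 0.46 (adjusted p = 0.00709), *Ascl2*, a transcription factor of intestinal stem cells with 3.51 to 29.4 counts, -1.55 (adjusted p = 0.014, and 0.0663 with the GC offset), *Ephb3* -0.46 (adjusted p = 0.0206, and 0.271) and *Bmp4* -0.4 (adjusted p = 0.047, and 0.0904). All 4 calls were lost when a single mouse was left out. The adjusted p was 0.0525 for *Wnt5a* without CT21 replicate 1, 0.0962 for *Ascl2* without CT21 replicate 3, and up to 0.0821 for *Ephb3* and 0.131 for *Bmp4* without CT21 replicates 4 and 3. Of 18 enteroendocrine genes 1 was higher and 1 lower, 5.56% each and so under the shares of all genes (0 and 1 with the GC offset). The pair called without it were the prohormone convertase gene *Pcsk1* (0.38, adjusted p = 0.0109, and 0.219 with the GC offset) and *Chga*, chromogranin A (-0.41, adjusted p = 0.0199, 0.603 with the GC offset and 0.0596 without CT21 replicate 3). *Nkx2-2* (-1.29, adjusted p = 0.0719) and *Scg3* (0.4, adjusted p = 0.0826) did not pass.

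**Figure D3:**
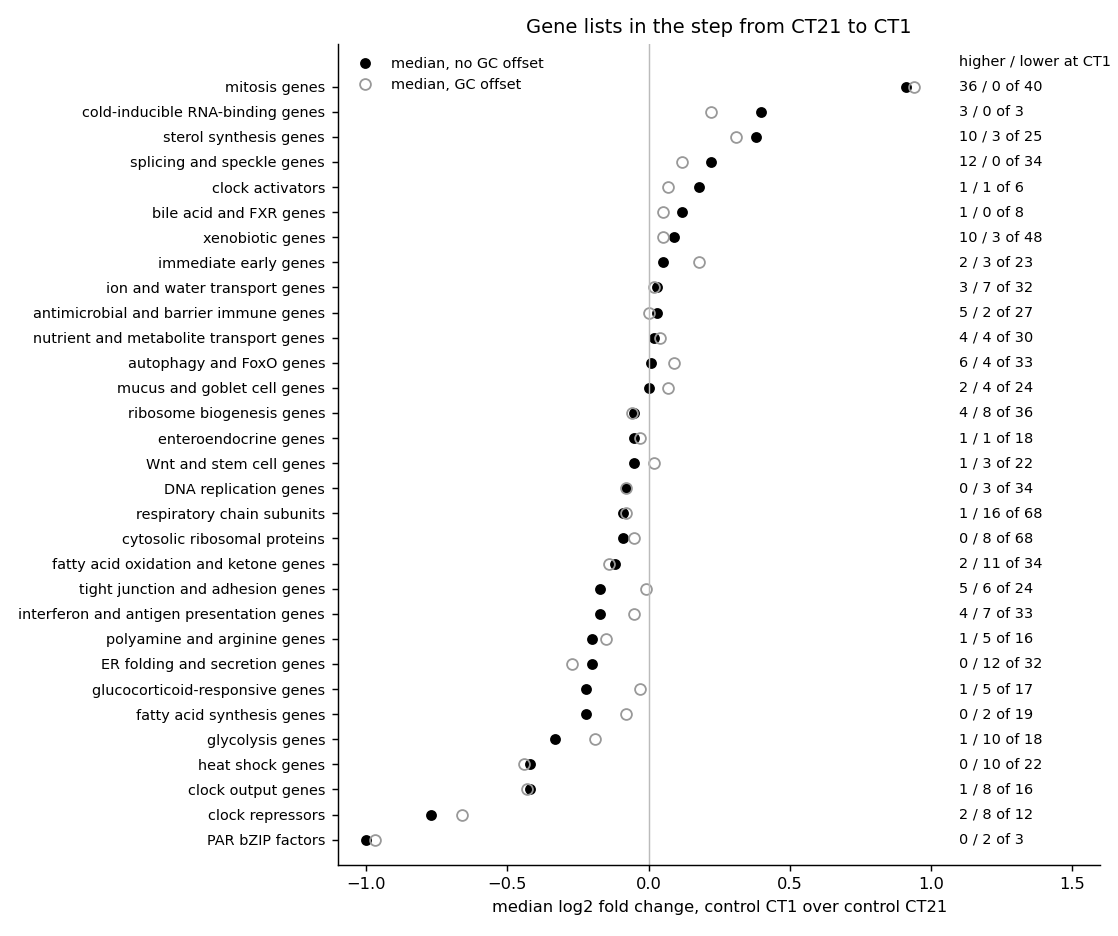
Median log2 fold change from CT21 to CT1 in control colon of the gene lists, without and with the GC offset, with the numbers of members higher and lower at CT1 at the right. Mitosis genes lie at 0.91 (36 of 40 higher), clock repressors at -0.77 (8 of 12 lower) and heat shock genes at -0.42 (10 of 22 lower), beside 0.01 for all genes.

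The same step was then compared in *Bmal1*IEC-/- mice, which share the fit and its estimate of the spread with the control mice. A pair of their 4 CT1 mice is left out of the fit because the study's control rhythm values carry size factors that leave them out, so that 2 CT1 mice stood against 4 CT21 mice. In these, 98 genes (0.65%) were higher and 89 (0.59%) lower at CT1 (126 and 96 with the GC offset). Over all 48 mice the counts were 645 and 591, and without either of the 2 CT1 mice none passed, with 1497 and 1793 genes at an unadjusted p under 0.05. Of the genes higher in control mice, 83.8% had a log2 fold change above zero in *Bmal1*IEC-/- mice, and of those lower 86.1% had one below zero, beside 67.3% of all genes with the same sign in both. The medians were 0.25 and -0.21, smaller than the 0.55 and -0.52 of control mice, in which the genes were chosen. With the GC offset the medians of the same genes were 0.19 and -0.13, beside 0.47 and -0.37 in control mice. The log2 fold changes of both genotypes correlated across 15073 genes (Pearson's r = 0.37, Spearman's rho = 0.46, and 0.31 and 0.38 with the GC offset), genes not being independent replicates. The GC slope moved in these mice as well, from -0.09 to 0.11 at CT21 to -0.15 to -0.13 at CT1.

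All 40 mitosis genes had a log2 fold change above zero in *Bmal1*IEC-/- mice as well, with a median of 0.71. Of them 4 passed as higher, beside 0.65% of all genes. Over all 48 mice the median was 0.58 with 15 passing, beside 645 of 14618 genes. *Cenpa* had 58 ± 12.8 (SD, n = 4) counts at CT21 and 115 ± 24.5 (n = 2) at CT1 in *Bmal1*IEC-/- mice (log2 fold change 0.99, adjusted p = 0.046, and 0.7 with 0.0529 over all 48 mice), and *Kif2c* had 1.15 (adjusted p = 0.047). The difference between the genotypes did not pass for any of the 40 genes, in the 46 or in all 48 mice. Clock repressors had a median of 0 in *Bmal1*IEC-/- mice. *Nr1d2* was higher as in control mice (1.19, adjusted p = 0.0295), *Hlf* of the PAR bZIP factors was lower (-1.26, adjusted p = 0.0427), and *Cipc* was higher (0.56, adjusted p = 0.0451, but 0.23 with 0.374 over all 48 mice). For *Nr1d1* the log2 fold change was 1.62 (adjusted p = 0.143), from 6.96 ± 2.36 (SD, n = 4) to 21.8 ± 6.92 (n = 2) counts, and the difference from control mice did not pass (adjusted p = 0.439).

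The step itself differed between the genotypes, by an interaction test, in 12 genes (0.0796%) in the 46 mice (8 with the GC offset) and in 916 over all 48, and in 2 to 76 genes when a single mouse was left out. *Per2* was among them. It had 241 ± 82.3 (SD, n = 4) counts at CT21 and 191 ± 0.486 (n = 2) at CT1 in *Bmal1*IEC-/- mice, a difference between the steps of -2.15 on the log2 scale (SE 0.33, adjusted p = 0.000642). Over all 48 mice *Per2* was lower at CT1 in *Bmal1*IEC-/- mice too (log2 fold change -0.64, adjusted p = 0.0418). The difference between the steps was then -1.86 (adjusted p = 0.00151). *Tef* had 214 ± 16.7 and 206 ± 22.7 counts, a difference of -1.15 (adjusted p = 0.0161). For *Per1*, *Per3* and *Cry1* the adjusted p of the difference was 0.187, 0.106 and 0.144, and over all 48 mice it was 0.0578, 0.219 and 0.0138.

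Other genes that passed both in the control step and in the difference were *Elf3*, *Esrp2*, *Neurl3*, *Prr15l*, *Nags* and *Lpin1*. *Elf3*, an epithelial ETS factor, had 1430, 1260, 1480 and 1530 counts at CT21 and 777, 678, 729 and 846 at CT1 in control mice (log2 fold change -0.91), and the steps differed by -1.21 (adjusted p = 0.0364). *Esrp2*, an epithelial splicing regulator, had 315, 310, 285 and 314 counts at CT21 and 215, 229, 215 and 235 at CT1, and its steps differed by -0.62 (adjusted p = 0.0312). For *Neurl3*, a ubiquitin ligase gene, and *Prr15l* the differences were -0.62 (adjusted p = 0.0243) and -0.8 (adjusted p = 0.0256). *Prr15l* passed weakly in the control step itself (log2 fold change -0.32, adjusted p = 0.0199), with 0.122 without CT21 replicate 4 and 0.0742 with the GC offset. *Nags*, which encodes N-acetylglutamate synthase, had 60.2 to 74.7 counts at CT21 and 11.5 to 36.3 at CT1 in control mice, and a difference of -1.7 (adjusted p = 0.0437). *Lpin1*, a phosphatidate phosphatase and coactivator, was higher at CT1 in control mice (0.79) and differed by 1.43 (adjusted p = 0.0437). All 8 genes named here for this difference also passed over all 48 mice, with adjusted p values from 0.00151 for *Per2* and *Nags* to 0.0245 for *Esrp2*. With the GC offset *Neurl3* (0.0515), *Esrp2* (0.0671), *Nags* (0.0515) and *Lpin1* (0.0515) missed the threshold.

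**Figure D4:**
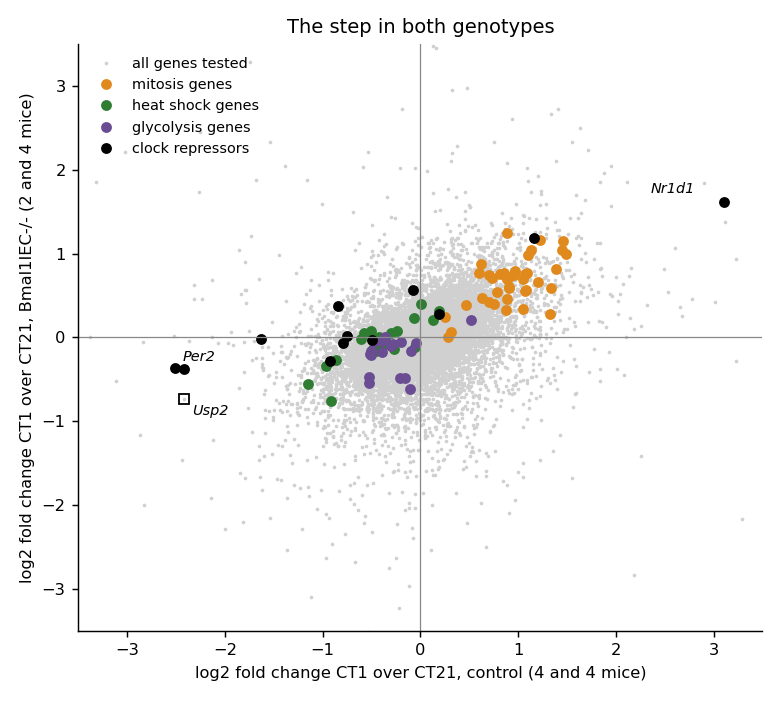
Log2 fold change from CT21 to CT1 of 15063 genes in control mice (4 against 4, horizontal axis) and in *Bmal1*IEC-/- mice (2 against 4, vertical axis), with 38 genes outside the axes and *Usp2* as an open square. Mitosis genes lie above zero in both genotypes, and *Per2* lies at -2.51 in control and -0.36 in *Bmal1*IEC-/- mice.

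Among the 6 steps of 4 h in control mice, the step from CT21 to CT1 had the most genes passing, 3630, and the step from CT9 to CT13 came second with 2303. With the GC offset the counts were 2905 and 2780. The other steps had 220 (CT1 to CT5), 78 (CT5 to CT9), 153 (CT13 to CT17) and 31 (CT17 to CT21) genes, and with the GC offset 162, 81, 173 and 37. Neighbouring steps share mice, and the steps from CT21 to CT1 and from CT9 to CT13 share none. Of the 1718 genes higher at CT1, 570 (33.2%, and 49.1% of the 1161 genes lower at CT13 than at CT9) were lower at CT13, beside 7.7% of all genes. Of the 1912 genes lower at CT1, 612 (32%, and 53.6% of the 1142 genes higher at CT13) were higher at CT13, beside 7.58% of all genes. Genes that moved in the same direction in both steps numbered 3 and 2.

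Of the genes higher at CT1, 77.2% had their highest mean of the 6 times at CT1, 11.7% at CT5 and 10.1% at CT9, beside 25.8%, 11.3% and 15.8% of all genes tested. Of those lower at CT1, 48.6% had it at CT13, 29.4% at CT21 and 16% at CT17, beside 20.3%, 13% and 13.7% of all. These shares are in part fixed by the calls, since a gene higher at CT1 cannot peak at CT21, nor a lower one at CT1. *Nr1d1* was on its way up, with means of 123 counts at CT1, 443 at CT5 and 557 at CT9, and *Per2* had its lowest mean, with 38.6 counts at CT1 and 784 at CT13. *Cenpa* stayed high through the day, with 157 counts at CT1, 147 at CT5 and 132 at CT9, and was at 52.3 by CT13.

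**Figure D5:**
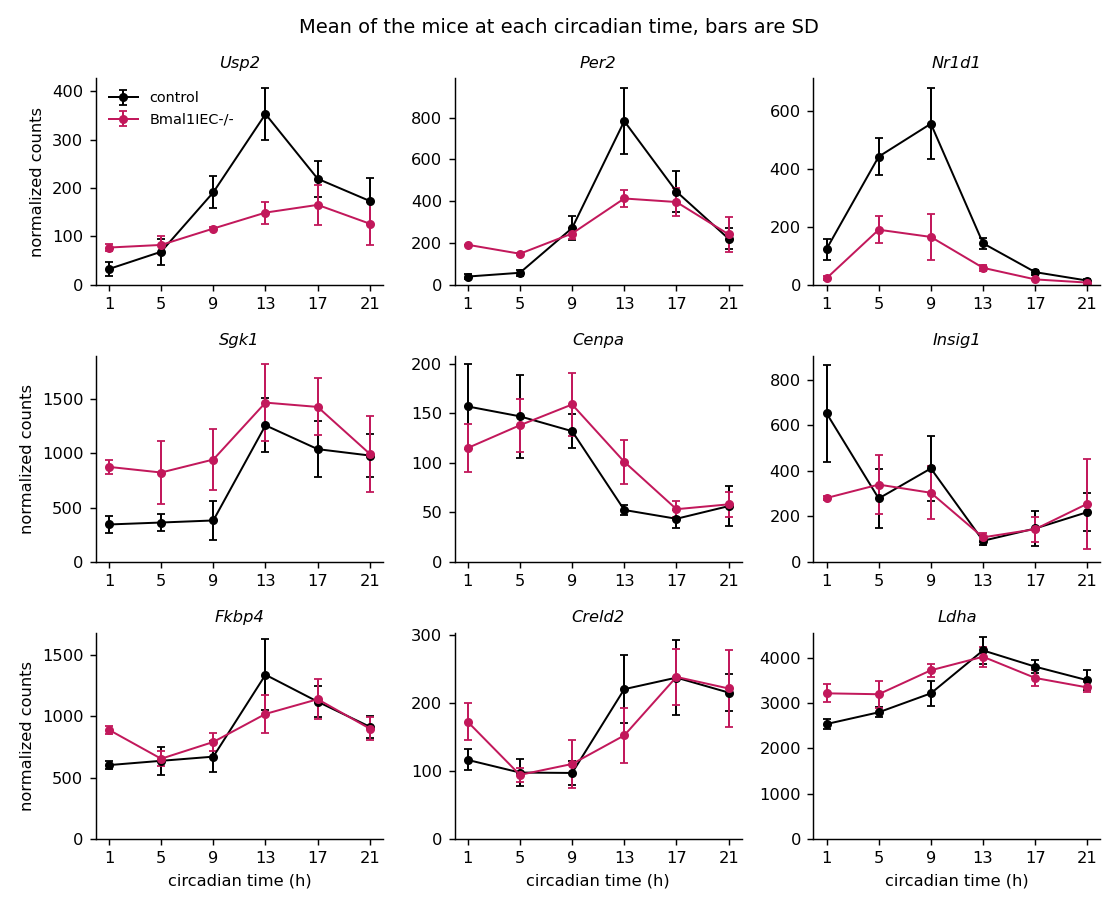
Normalized counts (mean ± SD) of 9 genes named here at the 6 circadian times in control and *Bmal1*IEC-/- mice, n = 4 per point except 2 for *Bmal1*IEC-/- at CT1. Between CT21 and CT1 the control means of *Per2* fall from 220 to 38.6 counts, and *Cenpa* is higher at CT1 in both genotypes.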

How the data were processed

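Colon RNA of 48 mice was measured by stranded, paired-end mRNA sequencing. The deposited values are the authors' raw read counts per gene. Per the labels and the paper's methods, the authors checked and trimmed reads with FastQC 0.11.5 and Trimmomatic 0.39, aligned them to mm10 with STAR 2.7.5c, used SAMtools 1.3.1 and counted exonic reads with featureCounts 1.4.6, leaving out reads on several features, and fitted DESeq2 1.22.0. The strand setting is not given in the sources used here. Of 55401 genes listed, 55141 were in GENCODE vM21, the source of symbols and GRCm38 positions.

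Counts of 46 mice (12 groups of genotype and time) were fitted with edgeR 4.0.16 in R 4.3.3, with TMM normalization, filterByExpr and its quasi-likelihood F test, and p values were adjusted after Benjamini and Hochberg. The 2 *Bmal1*IEC-/- CT1 mice left out, replicates 1 and 2 in the order listed, are those that the size factors in the study's control rhythm table leave out. Counts were normalized by size factors of DESeq2 1.42.0, taken from the same mice. The GC offset, chosen after seeing the data, took from each gene in each mouse a loess curve (span 0.5) of expression on transcript GC content, fitted on genes with a CPM of at least 8. Figures were drawn with Python 3.11.15 and matplotlib 3.10.9.

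Named genes were all clock genes of 3 lists, the 10 genes with the smallest adjusted p and the 5 with the largest change in each direction, up to 4 of each other list by p, and the leading genes of the difference between genotypes, leaving out predicted genes, and some genes so chosen are not reported here. Of 31 lists of pathways and 18 of markers, all 1002 genes were found in the table. The members and lists were chosen with earlier results of these data known. Alternatives were other sets of mice, normalizations and filters, DESeq2, a test against the fold change, leaving out each mouse, and the offsets. On simulated counts for 14826 genes of this comparison, 70.7% of 200 genes changed 2-fold and 49% of those changed 1.5-fold were recovered. In the 2-fold setting 5 unchanged genes were called. With a GC slope added at control CT1, 645 unchanged genes were called without the GC offset and 6 with it, among 14835 genes.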

Additional observations from a re-analysis of the deposited data

Results flagged for a closer look

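Among the 149 named genes, 1 mouse stood apart from the other 3 of its group (Dixon's test at the 95% level) in 19 of 298 groups tested, where chance gives about 1 in 20. At CT1, replicate 4 was the mouse apart for *Pdxk* (117 normalized counts, the others 85.6 to 88.9), *Slc25a22* (148, the others 78.8 to 89.7), *Tpi1* (1720, the others 1540 to 1560) and *Atoh1* (247, the others 120 to 141), each time on the side of the CT21 mice. Replicate 1 was apart for *Ankrd37* (118, the others 45.4 to 53.8), *Eno1* (1020, the others 1160 to 1180), *Tlr2* (274, the others 303 to 306) and *Pcsk1* (338, the others 325 to 327), and replicate 3 for *Rps29* (681, the others 552 to 558) and *Nr1h4* (470, the others 562 to 575).

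At CT21, replicate 1 was apart for *Slc15a1* (2.87 counts, the others 12 to 13.8), *Cycs* (1050, the others 805 to 836) and *Amd1* (518, the others 403 to 419), and replicate 2 for *Hlf* (25.1, the others 41.5 to 44) and *Ccnl1* (397, the others 329 to 338). Replicate 3 was apart for *Esrp2* (285, the others 310 to 315) and *Abcg2* (476, the others 560 to 573), and replicate 4 for *Cipc* (708, the others 450 to 490) and *Kcne3* (476, the others 574 to 579).

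In 8 named genes the step differed between control and *Bmal1*IEC-/- mice by the interaction test of edgeR. The difference, the control step minus the *Bmal1*IEC-/- step on the log2 scale, was -2.15 for *Per2*, -1.15 for *Tef*, -0.62 for *Neurl3*, -0.8 for *Prr15l*, -0.62 for *Esrp2*, -1.21 for *Elf3*, -1.7 for *Nags* and 1.43 for *Lpin1*.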

How the results depend on the processing

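No paired analysis was possible because the labels give no replicate numbers that groups share. For the control step, the counts of 1718 higher and 1912 lower genes were 790 and 781 with a fold change of at least 1.5 required as well, and 27 and 32 when tested against a change of 1.5-fold with glmTreat. Leaving out each of the 8 mice in turn gave 1155 to 1717 higher and 1389 to 1928 lower genes. Other sets of mice, normalizations, filters, DESeq2 and the GC offset gave counts within 1.5 times, though not all of the same genes. The counts of the *Bmal1*IEC-/- step, 98 higher and 89 lower, were 645 and 591 over all 48 mice, 469 and 311 without a filter on low counts, 196 and 174 with DESeq2, and 185 higher with the offset for GC content and length. Without single mice they were 0 to 250 and 0 to 193. They were 0 without *Bmal1*IEC-/- CT1 replicate 3 or 4, where the lone mouse left is assumed to vary like the other groups, 15 and 12 without CT21 replicate 1, 250 and 193 without replicate 2, 21 and 19 without replicate 3, and 31 and 26 without replicate 4. The difference between genotypes, 12 genes, was 916 over all 48 mice, 287 without a filter and 78 with DESeq2. Without single mice it was 2 to 76, with 76 without control CT1 replicate 4, 70 without *Bmal1*IEC-/- CT21 replicate 1, and 43 without control CT21 replicate 2. The cause of these shifts was not tested.

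Of the 149 named genes 135 passed in the control step, and 116 of them passed in all 8 fits without 1 mouse. With the GC offset 18 of the 135 lost their call. A sign changed for 5 genes. Without single mice the log2 fold changes ran from -0.15 to 0.47 for *Ciart*, -0.07 to 0.2 for *Clock*, 0 to 0.1 for *Arntl* and -0.14 to 0.11 for *Cipc*. *Ciart* had -0.07 and -0.15 without CT1 or CT21 replicate 4. *Clock* had -0.05, -0.07 and -0.03 without CT1 replicate 3, CT21 replicate 3 or CT21 replicate 4, -0.15 with the GC offset and -0.22 with the offset for GC content and length. *Arntl* came to 0 without CT1 replicate 3 and with the offset for GC content and length, *Cipc* to 0.01 and 0.11 without CT1 or CT21 replicate 4, and *Rpl29* to 0.03 and 0.08 with the 2 offsets. Of these only *Rpl29* had passed. With 4 mice per time and 3227695 to 4408757 counts each, a small change, or a change of a gene with few counts, may not have been detected.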
